A study of Mus musculus with 8 samples.

Results

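Maturation of thymic dendritic cells was compared between the subsets with and without surface Sirpa, gene by gene, as the maturation difference in Sirpa-positive cells minus the maturation difference in Sirpa-negative cells, here called the interaction. An interaction below 0 means that a gene rose less or fell more with maturation in Sirpa-positive cells. The members were the 25565 of 55681 probes that were well above background on all 8 arrays, so that a fall could be measured in either subset. They stood for 18979 of the 24152 genes tested, each gene by its brightest probe. The members were chosen by brightness on all arrays, and the genes named in the text were mostly chosen for the size of their interaction, so that their own values are a description.

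By its title, the study asked what CD40 does when thymic dendritic cells mature and regulatory T cells form. Dendritic cells were sorted from mouse thymus into 4 groups with 2 arrays each: Sirpa_Pos_Immature (replicates 3 and 5), Sirpa_Pos_Mature (1 and 6), Sirpa_Neg_Immature (4 and 7) and Sirpa_Neg_Mature (2 and 8). The labels give no strain, genotype, age, treatment or further sort marker for any group, and nothing in them says if replicate arrays represent different mice or pools. A p-value here thus reflects array-to-array spread, part of which may be technical. A measured difference between the replicate arrays of every group, in the RNA XIST, is given below.

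Dendritic cells of the thymus present self antigens to developing T cells, removing self-reactive cells or steering them to become regulatory T cells. Sirpa, an inhibitory receptor that binds Cd47, marks the type 2 conventional subset, which depends on Irf4, whereas most Sirpa-negative cells are of the type 1 subset, which carries Xcr1 and depends on Irf8 and Batf3. On maturation, conventional dendritic cells raise costimulatory molecules and the chemokine receptor Ccr7 and switch on a broad shared programme.

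The labels were checked against defining markers. Levels are log2 signals with the 75th percentile of each array set to 0. The dendritic cell genes Itgax, Flt3, Zbtb46, H2-Ab1 and Cd74 were well above background on all 8 arrays, with Itgax between 3.48 and 4.75. Sirpa was at 4.68 and 4.54 in Sirpa-positive immature cells, 4.27 and 3.95 in Sirpa-positive mature cells, -2.24 and -2.19 in Sirpa-negative immature cells and -0.52 and -0.90 in Sirpa-negative mature cells. Xcr1, a type 1 receptor, was above background on 6 arrays and so is no member; it was between 0.87 and 2.27 in Sirpa-negative cells and below -3 on each Sirpa-positive array. Ccr7 was at -0.45 and -1.45 in Sirpa-positive immature cells, 5.21 and 5.22 in Sirpa-positive mature cells, 1.14 and -0.70 in Sirpa-negative immature cells and 6.20 and 5.62 in Sirpa-negative mature cells, and it rose in both subsets. Arrays of a group correlated at 0.983 to 0.991 over the members, arrays of different groups at 0.921 to 0.970. The 75th percentile of signal ran from 147 to 313 intensity units.

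Several measured differences between arrays bear on every result. Sirpa_Pos_Mature replicate 6 was dimmest, and replicates 1 and 6 of that group differed by more than 2-fold in 729 members, against 735 between the Sirpa-negative mature arrays, 542 between the Sirpa-negative immature arrays and 221 between the Sirpa-positive immature arrays. The arrays lay in 2 rows of the slide, and 61.9% to 65.5% of spots in the first row but 52.9% to 57.9% in the second were well above background. Each row held 1 array of every group, as did each of the title number sets 1 to 4 and 5 to 8. The 2 sets were separated by XIST, the RNA of the inactive X chromosome in female cells. It lay between 0.05 and 1.38 on the arrays numbered 1 to 4 and between -3.27 and -1.30 on those numbered 5 to 8. Each group held 1 array from either side of this split, so its replicates are unlikely to be repeats of the same RNA. The main fit left the set out, and fits with it as a block are given in the closing section.

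Maturation ran largely in parallel in both subsets. At an adjusted p under 0.05 in limma over all genes tested, Sirpa-positive cells raised 737 members (3.88%) and lowered 465 (2.45%) with maturation, and Sirpa-negative cells raised 1544 (8.14%) and lowered 1511 (7.96%). Of these, 630 rose in both subsets, 348 fell in both and 1 moved in opposite directions. Across the 18979 members the maturation differences of the subsets, which share no array, correlated at r = 0.751 (Spearman's rho 0.641); genes are not independent replicates, and the groups share the slide. The spread of the maturation difference over members was wider in Sirpa-negative cells (SD 0.790) than in Sirpa-positive cells (SD 0.607).

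The interaction itself passed for no gene when all 24152 genes entered the limma fit: 0 (0%) had an adjusted p under 0.05, and the smallest was 0.0689, shared by 17 members. Without adjustment, 1147 members (6.04%) had p under 0.05, 703 below 0 (3.7%) and 444 above 0 (2.34%), and 117 had p under 0.001, of which 95 were below 0. Without Sirpa_Pos_Mature replicate 1 the direction of the unadjusted counts turned, to 757 below 0 and 1122 above. They were 450 and 202 without Sirpa_Pos_Immature replicate 3, 529 and 291 without Sirpa_Pos_Mature replicate 6, 650 and 284 without Sirpa_Neg_Immature replicate 4, and 921 and 682 without Sirpa_Neg_Mature replicate 8. Counts of list members given below at an unadjusted p under 0.05 are to be read against 3.7% of all members below 0 and 2.34% above. Counts of list members below 0 without regard to p have another baseline. Of the 18979 members, those below 0 were 2677, 2846 and 2816 genes. These are the genes whose difference between the subsets narrowed, widened and changed sign with maturation, in that order. The median interaction over all members was 0.06, so that more members lay above 0 than below it. When the fit was limited to the members, 101 genes (0.532%) passed, 82 below 0 (0.432%) and 19 above 0 (0.1%). This second count rested on single arrays: it was 0 without Sirpa_Pos_Immature replicate 3, 0 without replicate 5 of that group, 10 without Sirpa_Pos_Mature replicate 6, 223 without Sirpa_Pos_Mature replicate 1, 6 without Sirpa_Neg_Mature replicate 2, 50 without replicate 8 of that group, and 36 and 67 without Sirpa_Neg_Immature replicates 7 and 4. Without Sirpa_Pos_Mature replicate 1 the direction of the calls turned, with 80 below and 143 above 0. Those 143 genes were a median of 2.12 higher on replicate 6 than on replicate 1 of that group. The genes below are therefore given by their values, with the adjusted p over all genes first and that in the fit of members second.

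**Figure D1:**
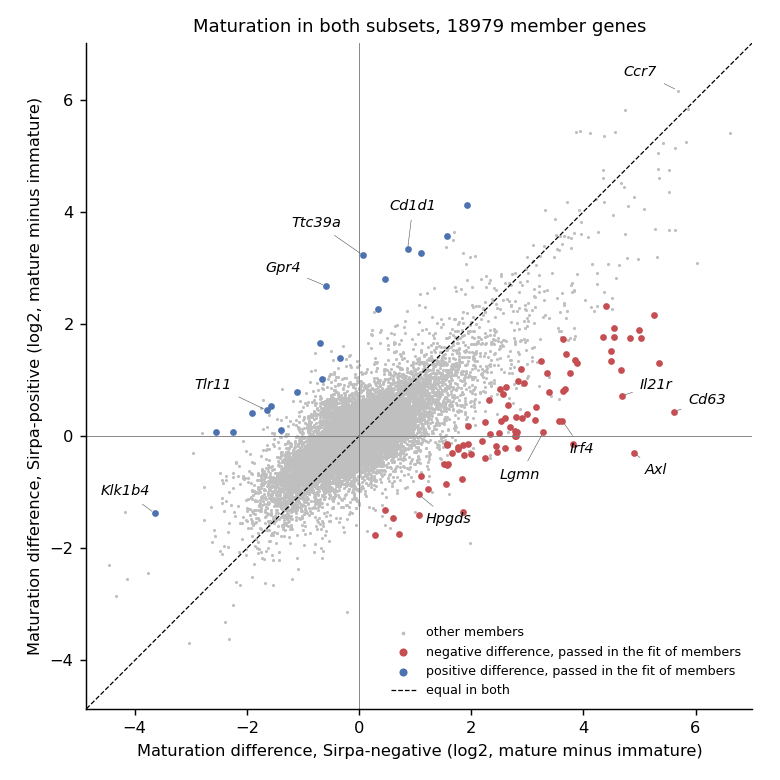
Maturation difference (log2, mature minus immature) of each of the 18979 member genes in Sirpa-negative cells (x axis) against Sirpa-positive cells (y axis). Most genes lie along the dashed line of equal change; the 82 red genes, below the line, rose less or fell more in Sirpa-positive cells, and the 19 blue genes, above it, the reverse, in the fit limited to the members.

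Most of the 82 genes below 0 rose in Sirpa-negative cells: 58 rose there with no call in Sirpa-positive cells, 18 rose in both, 5 fell in Sirpa-positive cells with no call in Sirpa-negative cells, and 1 moved in opposite directions. Of the 19 genes above 0, 8 rose in Sirpa-positive cells only by call, 7 fell in Sirpa-negative cells only by call, 3 rose in both and 1 fell in both. Among all 18979 members, 913 rose in Sirpa-negative cells with no call in Sirpa-positive cells, and 630 rose in both. A further 15701 had no call in either subset. Both splits are descriptions, since the genes were chosen by an interaction from the same arrays. An interaction below 0 favours a rise in Sirpa-negative or a fall in Sirpa-positive cells, and one above 0 the reverse. A call in a single subset is not by itself a difference between subsets, and the interaction is the test of that difference. The size of the interaction in the 101 genes ran from 1.51 to 5.20, with a median of 2.35.

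Axl, a receptor tyrosine kinase that binds Gas6 on dying cells, had the most negative interaction of the members with a full symbol. Its level was 4.68 and 4.57 in Sirpa-positive immature cells, 4.35 and 4.31 in Sirpa-positive mature cells, -2.54 and -3.11 in Sirpa-negative immature cells and 2.40 and 1.77 in Sirpa-negative mature cells. Sirpa-positive cells held it high in either state, and Sirpa-negative cells, at the lowest levels when immature, rose 29.9-fold without reaching them. The interaction was -5.20 ± 0.41 (log2 ± SE; adjusted p 0.0689, 0.0041 in the fit of members), -5.73 in the first row and -4.67 in the second of the slide. Over 20 alternative settings it ran from -5.52 to -3.65. The Sirpa-negative immature levels lay near the lowest levels of the dimmest members, whose median was -3.22.

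Cd63, a tetraspanin of late endosomes, was at 5.73 and 5.32 in Sirpa-positive immature cells, 6.04 and 5.88 in Sirpa-positive mature cells, 0.88 and -0.70 in Sirpa-negative immature cells and 6.08 and 5.33 in Sirpa-negative mature cells. Here the mature groups overlapped, and only the Sirpa-negative immature arrays were low, although these differed from each other by more than 1. Cd63 rose 49.0-fold in Sirpa-negative cells (adjusted p 0.000949), while its difference in Sirpa-positive cells was 0.44; the interaction was -5.18 ± 0.71 (adjusted p 0.084, 0.0194 in the fit of members).

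Il21r, the receptor of interleukin 21, followed the same course, at 2.24 and 1.66 in Sirpa-positive immature cells, 2.84 and 2.50 in Sirpa-positive mature cells, -1.64 and -1.89 in Sirpa-negative immature cells and 3.31 and 2.52 in Sirpa-negative mature cells. The mature groups overlapped. The interaction was -3.96 ± 0.47 (adjusted p 0.0689, 0.0138 in the fit of members). Other interleukin receptor chains lay the same way: Il1r2, the decoy receptor of interleukin 1, at -2.75, Il2rg, the common gamma chain, at -2.45, and Il4ra at -1.67, all of which rose in Sirpa-negative cells (by 2.46, 2.50 and 2.32) with -0.28, 0.06 and 0.64 in Sirpa-positive cells. Of 28 member genes in the list of interleukin receptors, 8 (28.6%, against 3.7% of all members) had an unadjusted p under 0.05 and lay below 0 and 0 lay above it (2.34% of all members), with a median of -0.37 against 0.06 over all members.

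Irf4, the transcription factor on which type 2 cells depend, was at 1.52 and 1.84 in Sirpa-positive immature cells, 1.95 and 1.97 in Sirpa-positive mature cells, -2.74 and -3.06 in Sirpa-negative immature cells and 0.96 and 0.49 in Sirpa-negative mature cells. The difference of 0.27 in Sirpa-positive cells did not pass, and Sirpa-negative cells rose 12.3-fold to a level below every Sirpa-positive array. The interaction was -3.35 ± 0.35 (adjusted p 0.0689, 0.0138 in the fit of members), and -1.90 with normexp background correction with quantile normalization. Irf8, its type 1 counterpart, lay the other way, at 4.66 and 4.79 in Sirpa-positive immature cells, 5.35 and 5.97 in Sirpa-positive mature cells, 7.60 and 7.53 in Sirpa-negative immature cells and 6.79 and 6.86 in Sirpa-negative mature cells. Its interaction of 1.68 ± 0.35 did not pass in either fit (adjusted p 0.153 and 0.0819), and neither maturation difference passed (0.94 and -0.74). Batf3, which acts with Irf8, rose in Sirpa-positive cells by 1.12 and was 0.10 in Sirpa-negative cells, with an interaction of 1.02 ± 0.28 (unadjusted p 0.00816).

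**Figure D2:**
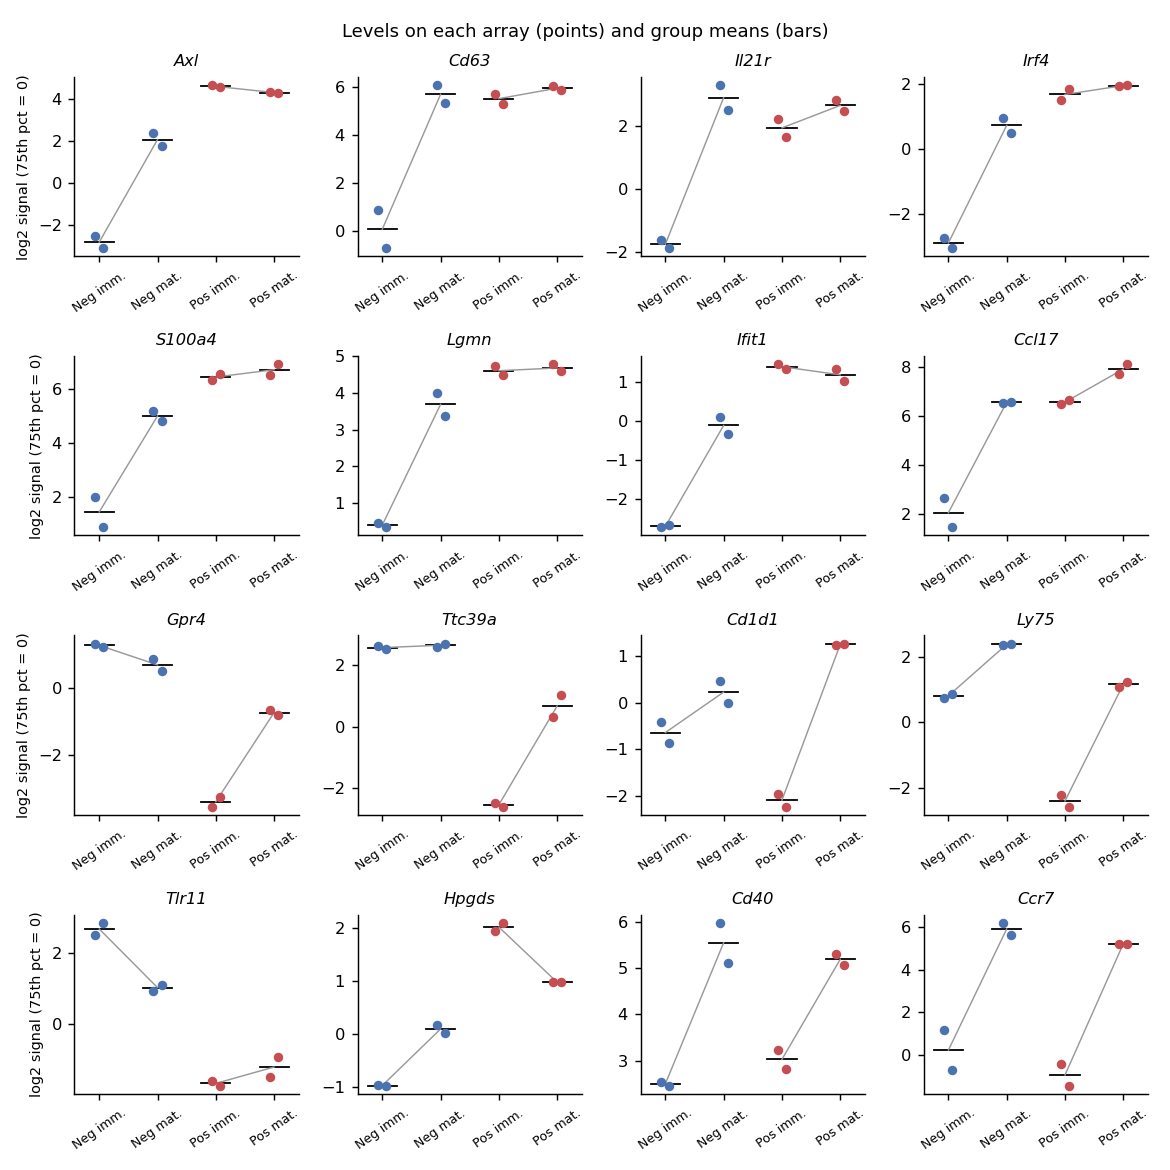
Log2 signal (75th percentile of the array at 0) of 16 genes on each array, as points (blue Sirpa-negative, red Sirpa-positive), with group means as bars joined within a subset by grey lines; the y axes differ between panels. In Axl, Irf4 and Lgmn the Sirpa-negative line climbs toward a flat Sirpa-positive line, in Gpr4 and Ttc39a the Sirpa-positive line climbs, and Ccr7 and Cd40 climb in both.

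Lysosomal proteases had the most negative median interaction of the 32 lists. Lgmn, the lysosomal asparagine endopeptidase, was at 4.73 and 4.49 in Sirpa-positive immature cells, 4.78 and 4.59 in Sirpa-positive mature cells, 0.46 and 0.34 in Sirpa-negative immature cells and 4.0 and 3.38 in Sirpa-negative mature cells. It rose 9.77-fold in Sirpa-negative cells and its 0.08 in Sirpa-positive cells did not pass, an interaction of -3.21 ± 0.36 (adjusted p 0.0689, 0.0138 in the fit of members). In the list of lysosomal proteases, 8 of 18 members (44.4%, against 3.7% of all) had p under 0.05 below 0 and 1 (5.56%, against 2.34%) above it, with a median of -0.75. Lamp1, a lysosomal membrane protein, was at -2.60, the carboxypeptidase Scpep1 at -1.82, and the cathepsins Ctsd, Ctsc and Ctsb at -1.63, -1.36 and -1.16. Each of these rose in Sirpa-negative cells, and none of them passed in Sirpa-positive cells. Without regard to p, 14 of the 18 members lay below 0. The member above 0 at p under 0.05 was Cst3, a secreted inhibitor of cathepsins. Cst3 was at 0.84 with no maturation call in either subset. Of the 18 members, 13 were higher in Sirpa-positive and 2 in Sirpa-negative immature cells, against 5.6% and 4.24% of all members. In mature cells 7 and 1 were, against 2.49% and 1.78%. The lists of antigen presentation lay nearer 0 than the lysosomal proteases. MHC class II genes had a median of -0.03, with 3 of 21 members at p under 0.05 below 0 and 0 above. The count below 0 was 6 with the authors' values and 7 with normexp background correction with quantile normalization. The median moved to -0.32 and -0.30 with these settings and to -0.30 with quantile normalization alone. With single arrays left out it ran from -0.16 to 0.24. MHC class I genes had a median of 0.18, with 0 of 23 members at p under 0.05 below 0 and 2 above. Without regard to p, 7 of the 23 lay below 0.

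The interferon-stimulated genes lay below 0 in 34 of 40 members, with a median of -0.44 against 0.06 over all members. Of the 40, 10 (25%, against 3.7% of all members) had p under 0.05 below 0 and 0 (against 2.34%) above it. Over the alternatives that kept all 8 arrays the first count ran from 9 to 16, the highest with normexp background correction with quantile normalization. With single arrays left out the median ran from -0.52 to -0.35. With maturation 11 of the 40 rose in Sirpa-negative cells (8.14% of all members rose there) and 0 fell (7.96%), while 0 rose (3.88%) and 1 fell (2.45%) in Sirpa-positive cells. Ifit1, an inhibitor of translation of viral RNA, was at 1.46 and 1.35 in Sirpa-positive immature cells, 1.36 and 1.03 in Sirpa-positive mature cells, -2.73 and -2.68 in Sirpa-negative immature cells and 0.12 and -0.33 in Sirpa-negative mature cells. Its interaction was -2.80 ± 0.33 (adjusted p 0.0689, 0.0138 in the fit of members), and -1.66 with normexp background correction with quantile normalization. Rtp4, at -2.65, and Ddx58, the RNA sensor RIG-I, at -1.96, also passed in the fit of members. Oasl2 (-2.68), Oasl1 (-1.70), Oas3 (-1.55), Ifit3b (-1.50), Ifit3 (-1.43), Rsad2 (-1.30) and Herc6 (-0.92) did not. Ifit3 and Ifit3b are near copies whose probes may share signal. The guanylate-binding and immunity-related GTPases, effectors against intracellular microbes, were all below 0, with 6 of 14 members (42.9%, against 3.7% of all) at p under 0.05 and a median of -0.72. The count of 6 was 3 without Sirpa_Neg_Immature replicate 4, Sirpa_Neg_Mature replicate 2 or Sirpa_Pos_Immature replicate 3. Gbp2 rose in both subsets, by 2.16 and 5.27, with an interaction of -3.11 ± 0.57, which was -1.90 with normexp background correction with quantile normalization.

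Promoters of Ifit1, Oas3 and Gbp2 from these lists, and of Tnip3 from the CD40 and NF-kB list described below, are shown as examples with a match. Interferon response elements are a known route to joint induction of interferon-stimulated genes. Whether they bear on the interactions measured here was not tested. Each sequence covers 250 bases before to 50 after the start, from RefSeq on GRCm38.p6, with capitals at every match, on either strand, to GAAA, any 2 bases, GAAA (interferon response element) or GGGA, any 4 bases, CC (an NF-kB element). In Ifit1 and Oas3 the capitals are interferon elements, in Gbp2 an interferon element and then an NF-kB element, and in Tnip3 a single stretch that matches the NF-kB element on both strands. Of the promoters not shown, those of Oasl2 and Oasl1 held 0 interferon elements. Those of Ddx58 and Rsad2 held 1 each, and those of Ifit3 and Ifit3b held 2 each.
Ifit1 promoter, chr19:34640639-34640938, plus strand: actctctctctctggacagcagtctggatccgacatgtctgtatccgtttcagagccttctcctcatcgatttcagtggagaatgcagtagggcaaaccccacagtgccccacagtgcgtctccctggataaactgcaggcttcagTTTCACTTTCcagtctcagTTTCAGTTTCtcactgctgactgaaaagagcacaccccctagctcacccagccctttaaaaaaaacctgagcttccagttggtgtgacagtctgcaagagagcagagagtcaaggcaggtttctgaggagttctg
Oas3 promoter, chr5:120777610-120777909, minus strand: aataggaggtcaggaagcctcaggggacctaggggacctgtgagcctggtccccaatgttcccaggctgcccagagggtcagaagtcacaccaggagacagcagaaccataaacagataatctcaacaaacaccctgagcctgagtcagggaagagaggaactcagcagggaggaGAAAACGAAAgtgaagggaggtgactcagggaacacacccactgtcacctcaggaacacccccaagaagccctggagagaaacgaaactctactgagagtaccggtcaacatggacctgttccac
Gbp2 promoter, chr3:142620413-142620712, plus strand: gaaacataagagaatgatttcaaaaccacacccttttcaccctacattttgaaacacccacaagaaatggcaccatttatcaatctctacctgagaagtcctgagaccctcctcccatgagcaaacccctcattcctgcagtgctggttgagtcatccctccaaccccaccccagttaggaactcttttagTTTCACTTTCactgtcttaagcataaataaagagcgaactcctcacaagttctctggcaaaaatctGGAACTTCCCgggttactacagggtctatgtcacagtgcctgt
Tnip3 promoter, chr6:65590148-65590447, plus strand: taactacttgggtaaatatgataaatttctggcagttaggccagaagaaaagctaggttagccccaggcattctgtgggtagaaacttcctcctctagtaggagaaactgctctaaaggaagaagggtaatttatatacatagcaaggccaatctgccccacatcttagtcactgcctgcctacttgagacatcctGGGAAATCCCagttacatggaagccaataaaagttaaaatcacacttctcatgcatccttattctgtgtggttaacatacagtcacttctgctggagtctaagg
The interferon element was in 3.44% of all 32851 promoters in the table, in 16 of 36 promoters of the interferon list (44.4%), and in 6 of 9 promoters of its genes with p under 0.05. It was in 3.17% of the promoters of members, in 5.68% of those of members below 0 with p under 0.05 and in 4.55% of those above 0. The NF-kB element was in 20.7% of all promoters, in 25.8% of those of members, and in 27.8% and 22.7% of those below and above 0 with p under 0.05. A match is a stretch of letters and not a measured binding site.

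CD40 signals through NF-kB, and 30 of the 32 members of the list for that pathway were below 0, with 7 (21.9%, against 3.7% of all members) at p under 0.05 below 0, 0 above it (against 2.34%) and a median of -0.48. With maturation 12 of the 32 rose in Sirpa-positive cells (3.88% of all members), 24 rose in Sirpa-negative cells (8.14%) and 0 fell in either. Tnip3, an inhibitor of NF-kB activation, was at 2.44 and 3.06 in Sirpa-positive immature cells, 2.83 and 3.26 in Sirpa-positive mature cells, -0.26 and -0.91 in Sirpa-negative immature cells and 2.42 and 2.68 in Sirpa-negative mature cells, and its interaction was -2.84 ± 0.46 (adjusted p 0.093, 0.0291 in the fit of members). Bcl3 (-1.37) and the inhibitor Nfkbie (-1.27) lay the same way without passing. The list's count of 7 was 3 without Sirpa_Pos_Immature replicate 3, 4 without replicate 5 of that group or Sirpa_Neg_Mature replicate 2, and 11 without Sirpa_Neg_Mature replicate 8.

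The interaction of Cd40 itself did not pass. Cd40 was at 3.24 and 2.82 in Sirpa-positive immature cells, 5.30 and 5.07 in Sirpa-positive mature cells, 2.54 and 2.47 in Sirpa-negative immature cells and 5.97 and 5.11 in Sirpa-negative mature cells, and it rose in both subsets, 4.46-fold in Sirpa-positive cells and 8.22-fold in Sirpa-negative cells. Its interaction of -0.88 ± 0.44 had an unadjusted p of 0.0858 (adjusted p 0.705), and the mature groups overlapped. Cd80, a ligand of Cd28, was similar, with 1.38 and 2.04 and an interaction of -0.66 ± 0.33 (unadjusted p 0.0802). Cd86, the other Cd28 ligand, was higher in Sirpa-negative cells in either state, with maturation differences of 0.76 and -0.04 that did not pass and an interaction of 0.81 ± 0.30 (unadjusted p 0.0321). Ccr7 had an interaction of 0.48 ± 0.84 (unadjusted p 0.591), with a large error from the immature arrays.

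Among other genes of T cell engagement, Cd274, the inhibitory ligand PD-L1, was at -0.19 and -0.45 in Sirpa-positive immature cells, 1.65 and 1.50 in Sirpa-positive mature cells, -2.82 and -3.90 in Sirpa-negative immature cells and 1.91 and 1.37 in Sirpa-negative mature cells. It rose in both subsets to overlapping levels from unequal immature levels, with an interaction of -3.10 ± 0.53 (adjusted p 0.0964, 0.0302 in the fit of members). That of Cd274 was -1.34 with normexp background correction with quantile normalization and -1.78 with the authors' values. Nectin2, a ligand of Cd226 and Tigit, was at -2.60. Ccl17, a chemokine for Ccr4-bearing T cells, was at 6.48 and 6.65 in Sirpa-positive immature cells, 7.72 and 8.10 in Sirpa-positive mature cells, 2.66 and 1.47 in Sirpa-negative immature cells and 6.54 and 6.58 in Sirpa-negative mature cells, and its interaction was -3.15 ± 0.53 (adjusted p 0.0964, 0.03 in the fit of members). It rose in Sirpa-negative cells (by 4.49) and its 1.35 in Sirpa-positive cells did not pass. In the list of chemokines 4 of 15 members (26.7%, against 3.7% of all) had p under 0.05 below 0 and 0 above it; in the list of Treg support mediators, which shares Ccl17 and Cd274 with other lists, it was 4 (25%) and 1 (6.25%, against 2.34%) of 16.

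The shared maturation programme was measured with 42 genes of maturation and migration, of which 35 rose in Sirpa-positive and 36 in Sirpa-negative cells and 0 fell. Of all members, 3.88% and 8.14% rose there. Its median maturation difference was 2.79 in Sirpa-positive and 3.71 in Sirpa-negative cells, and its median interaction was -0.47, which ranged from -0.74 without Sirpa_Neg_Immature replicate 4 to -0.15 without replicate 7 of that group. At p under 0.05, 7 of its members lay below 0 and 4 above; without Sirpa_Neg_Immature replicate 4 there were 17 below, without Sirpa_Neg_Mature replicate 2, Sirpa_Pos_Immature replicate 3 or Sirpa_Pos_Mature replicate 1 there were 4, and the last of these left 6 above. Fscn1, the actin bundler of mature dendritic cells, had 3.69 and 5.28. Serpinb6b (5.42 and 3.88) and Cd83 (2.40 and 2.78) also rose in both subsets.

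**Figure D3:**
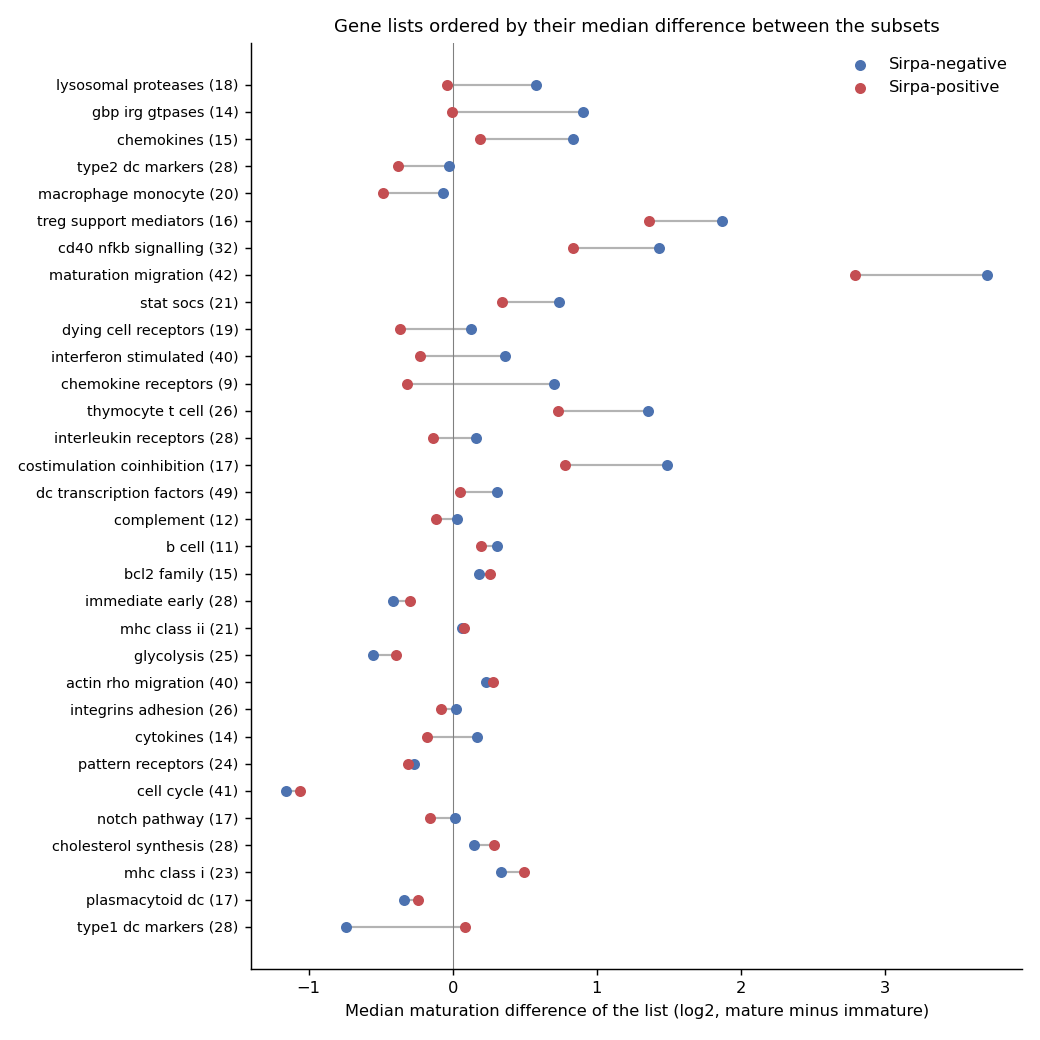
Median maturation difference (log2, mature minus immature) of each of 32 gene lists in Sirpa-negative (blue) and Sirpa-positive (red) cells, with the number of members in brackets; lists are ordered by median interaction, the most negative at the top being lysosomal proteases at -0.75 and the most positive at the bottom type 1 dendritic cell markers at 0.59.

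Markers of the subsets themselves lay in opposite directions. Of 28 members in the list of type 2 markers, 11 had p under 0.05 below 0 and 2 above, with a median of -0.58. Of 28 type 1 markers, 1 had p under 0.05 below 0 and 11 above, with a median of 0.59. With each array left out in turn the type 2 count below 0 ran from 10 to 12 and the type 1 count above 0 from 7 to 11, the lowest without Sirpa_Pos_Immature replicate 3. Of all members, 7.96% fell and 8.14% rose in Sirpa-negative cells, and 2.45% fell and 3.88% rose in Sirpa-positive cells. Of the 28 type 1 markers, 11 fell and 3 rose in Sirpa-negative cells, and 2 fell and 4 rose in Sirpa-positive cells. Among type 2 markers 10 rose and 7 fell in Sirpa-negative cells, and 3 rose and 5 fell in Sirpa-positive cells. In immature cells 19 type 2 markers were higher in the Sirpa-positive subset (5.6% of all members) and 21 type 1 markers in the Sirpa-negative subset (4.24%). In mature cells 13 and 16 were (2.49% and 1.78% of all members). In either state 0 type 2 markers and 1 type 1 marker lay the other way.

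Sirpa, the sort marker, rose in Sirpa-negative cells by 1.51 and had an interaction of -2.01 ± 0.32 (adjusted p 0.093, 0.0298 in the fit of members), yet the subsets remained 4.82 apart when mature. S100a4, a calcium-binding protein of the type 2 list, was at 6.34 and 6.58 in Sirpa-positive immature cells, 6.54 and 6.93 in Sirpa-positive mature cells, 2.02 and 0.87 in Sirpa-negative immature cells and 5.20 and 4.83 in Sirpa-negative mature cells, an interaction of -3.30 ± 0.54 (adjusted p 0.0938, 0.0291). Both were higher on every Sirpa-positive array than on any Sirpa-negative one. Epcam, an adhesion molecule, fell by 1.75 in Sirpa-positive cells and was 0.72 in Sirpa-negative cells, where it did not pass.

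Tlr11, a receptor for protozoan profilin found on type 1 cells, was at -1.59 and -1.72 in Sirpa-positive immature cells, -1.47 and -0.92 in Sirpa-positive mature cells, 2.50 and 2.85 in Sirpa-negative immature cells and 0.94 and 1.11 in Sirpa-negative mature cells. In Sirpa-negative cells it fell by 1.64 on the log2 scale, and it was 0.46 in Sirpa-positive cells, an interaction of 2.10 ± 0.36 (adjusted p 0.0964, 0.035 in the fit of members). Its partner Tlr12 lay the same way at 1.37 without passing. Ly75, the endocytic receptor DEC-205, was at -2.24 and -2.58 in Sirpa-positive immature cells, 1.08 and 1.22 in Sirpa-positive mature cells, 0.73 and 0.87 in Sirpa-negative immature cells and 2.35 and 2.40 in Sirpa-negative mature cells. It rose in both subsets, by 3.56 in Sirpa-positive and 1.57 in Sirpa-negative cells, and the interaction was 1.99 ± 0.29 (adjusted p 0.0853, 0.028). It was 0.94 with normexp background correction with quantile normalization and 1.28 with the authors' values.

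Among the remaining genes above 0, Gpr4, a proton-sensing receptor, had the most positive interaction of those with a full symbol. It was at -3.55 and -3.26 in Sirpa-positive immature cells, -0.64 and -0.82 in Sirpa-positive mature cells, 1.34 and 1.23 in Sirpa-negative immature cells and 0.88 and 0.51 in Sirpa-negative mature cells. The Sirpa-positive immature arrays alone were far below the rest, and the rise there was 6.38-fold, with an interaction of 3.26 ± 0.32 (adjusted p 0.0689, 0.0138 in the fit of members). That of Gpr4 was 1.64 with normexp background correction with quantile normalization and 2.02 with the authors' values. Ttc39a was at -2.49 and -2.60 in Sirpa-positive immature cells, 0.30 and 1.05 in Sirpa-positive mature cells, 2.62 and 2.53 in Sirpa-negative immature cells and 2.60 and 2.70 in Sirpa-negative mature cells, an interaction of 3.14 ± 0.38 (adjusted p 0.0689, 0.0139), and 1.90 with normexp and quantile normalization. Arpin, an inhibitor of the Arp2/3 complex, was at 2.35 (1.27 with normexp and quantile normalization, 1.55 with the authors' values), and Strip2, which rose in both subsets, at 2.19.

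Cd1d1, which presents lipids to natural killer T cells, turned its order between the subsets. It was at -1.95 and -2.22 in Sirpa-positive immature cells, 1.22 and 1.26 in Sirpa-positive mature cells, -0.43 and -0.86 in Sirpa-negative immature cells and 0.47 and -0.02 in Sirpa-negative mature cells: below the Sirpa-negative arrays when immature and above them when mature. The rise was 3.33 on the log2 scale in Sirpa-positive cells, the difference in Sirpa-negative cells was 0.87 (adjusted p 0.0617), and the interaction was 2.46 ± 0.36 (adjusted p 0.0853, 0.027 in the fit of members). Its 2 member probes gave 2.46 and 3.64. The Notch ligand Dll4 rose in both subsets, by 3.65 in Sirpa-positive and 1.69 in Sirpa-negative cells, with an interaction of 1.96 ± 0.41 that did not pass in either fit (adjusted p 0.154 and 0.0777).

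Hpgds, the prostaglandin D synthase of blood cells, was the member whose maturation differences passed in both subsets with opposite signs. It was at 1.93 and 2.09 in Sirpa-positive immature cells, 0.97 and 0.97 in Sirpa-positive mature cells, -0.97 and -0.97 in Sirpa-negative immature cells and 0.17 and 0.01 in Sirpa-negative mature cells. It fell 2.05-fold in Sirpa-positive cells (adjusted p 0.0218) and rose 2.09-fold in Sirpa-negative cells (adjusted p 0.0109), and no group overlapped another. The interaction was -2.10 ± 0.27 (adjusted p 0.0715, 0.0211 in the fit of members).

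Seen across maturation, the gap between the subsets was smaller in mature than in immature cells. Over all members the Sirpa-positive minus Sirpa-negative difference had an SD of 0.760 in immature and 0.573 in mature cells, and 1925 members against 1082 had a gap over 2-fold. In immature cells 1062 members (5.6%) were higher in the Sirpa-positive subset and 805 (4.24%) in the Sirpa-negative subset at an adjusted p under 0.05; in mature cells 473 (2.49%) and 337 (1.78%) were. The difference between these counts was not tested. Of the 101 genes that passed in the fit of members, the gap narrowed in 70, changed sign in 30 and widened in 1. Over all members it narrowed in 8192, changed sign in 6309 and widened in 4478. A gene chosen for a large interaction is more likely to show a narrowed or turned gap than any other, so the first of these splits is a description.

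The gene whose gap widened was Zdhhc14, a palmitoyltransferase. It was at -0.61 and -0.28 in Sirpa-positive immature cells, -0.93 and -0.64 in Sirpa-positive mature cells, 0.02 and -0.28 in Sirpa-negative immature cells and 1.77 and 1.73 in Sirpa-negative mature cells. The immature groups were close (-0.32), and the rise in Sirpa-negative cells set the mature groups -2.54 apart.

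**Figure D4:**
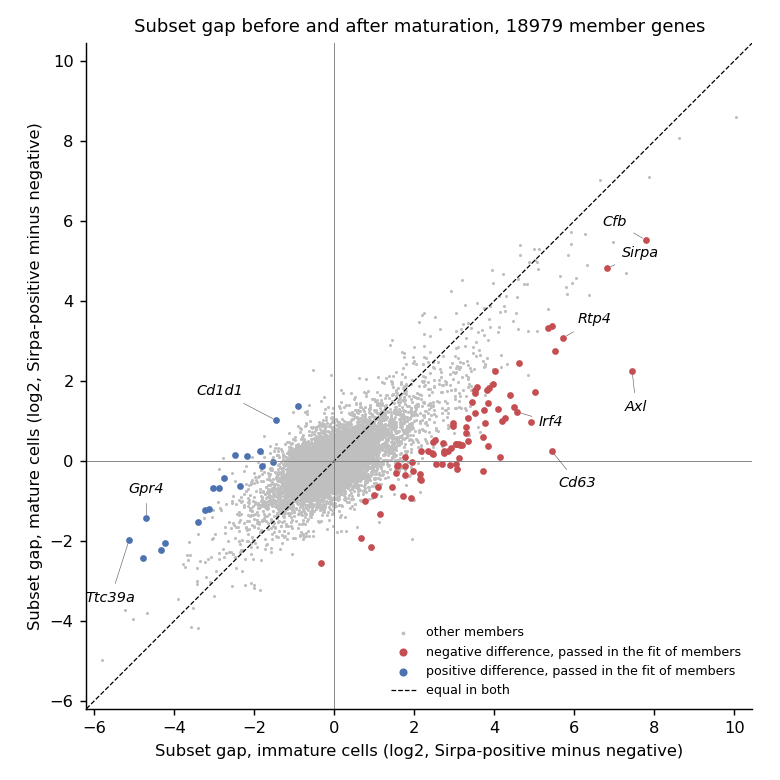
Difference between the subsets (log2, Sirpa-positive minus Sirpa-negative) of each of the 18979 member genes in immature cells (x axis) and mature cells (y axis), with the same colours as in the maturation plot. The 101 coloured genes lie mostly between the dashed line of equal gaps and the line at 0, as in Sirpa at 6.83 and 4.82 and Axl at 7.45 and 2.25.

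Markers of other cell types moved with the groups, and their part in the interaction was not tested. In bulk RNA, fewer cells of a type and less RNA per cell cannot be told apart. The 26 thymocyte and T cell genes had summed levels (linear signal, in multiples of the array's 75th percentile) of 55.1 to 60.8 in Sirpa-positive immature, 76.5 to 83.2 in Sirpa-positive mature, 28.2 to 31.5 in Sirpa-negative immature and 74.7 to 79.5 in Sirpa-negative mature cells. Of these genes 22 lay below 0, and the median interaction was -0.43. A sum is weighted to the brightest genes, and Tcf7 of this list rose by 2.56 in Sirpa-positive and 3.63 in Sirpa-negative cells. The median log2 level of the list was -0.74 and -0.39, -0.09 and 0.06, -0.72 and -0.84, and 0.24 and 0.53 on the arrays of the same groups in order. Cd3e, a chain of the T cell receptor complex, was at -0.19 and -0.14 in Sirpa-positive immature cells, 0.59 and 0.54 in Sirpa-positive mature cells, -0.13 and -0.38 in Sirpa-negative immature cells and 1.03 and 0.78 in Sirpa-negative mature cells. Macrophage and monocyte genes, a list that also holds Axl, summed to 1479 to 1913, 1343 to 1716, 660 to 691 and 575 to 617 in the same order, with 8 of 20 (40%, against 3.7% of all members) at p under 0.05 below 0 and 1 above; the 8 became 5 without Sirpa_Pos_Immature replicate 3 or Sirpa_Pos_Mature replicate 6, and the 1 became 3 without Sirpa_Pos_Mature replicate 1. The 28 type 1 markers summed to 947 on replicate 1 and 1979 on replicate 6 of the Sirpa-positive mature cells, a gap larger than in any other group, where the arrays were between 1111 and 2400. On those replicates the mean log2 level of the list was 2.28 and 2.41, and the median was 2.20 and 2.30. The gap in the sum was thus not a gap across the whole list. The 17 plasmacytoid dendritic cell markers summed to between 186 and 257 on all arrays, with 2 below and 3 above 0 at p under 0.05 (1 to 4 and 2 to 4 with single arrays left out), and the 11 B cell genes to between 25.7 and 57.2, with 1 each way.

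The interaction was also computed within each slide row, from 1 array of each group. Over the members the values of the rows correlated at r = 0.266 (rho 0.195), and those of the title number sets at r = 0.291 (rho 0.191), as a description across genes. Axl was -5.73 in the first row and -4.67 in the second, and Irf4 was -3.92 in the first row and -2.78 in the second. Hba-a1, a globin gene of red cells, was at -3.90 ± 0.86 (unadjusted p 0.00247), but its Sirpa-negative mature arrays lay at -0.56 and 1.62.

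**Figure D5:**
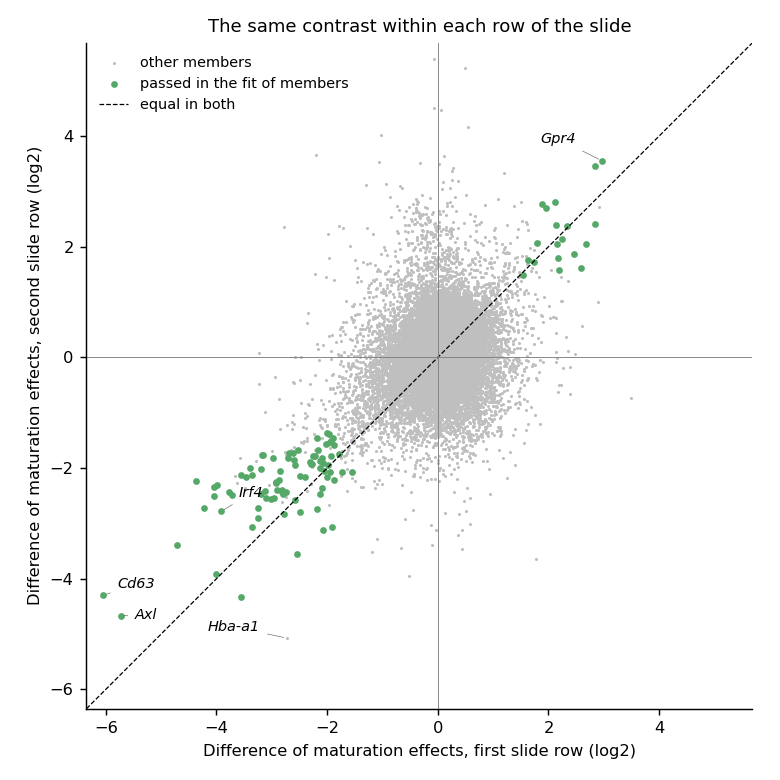
Interaction (log2) of each of the 18979 member genes computed from the 4 arrays of the first slide row (x axis) and of the second (y axis). The 101 genes that passed in the fit of members are green; passing favours small differences between the arrays of a group, so their distance from the dashed line of equality is set in part by the choice, and S100a4 lies at -4.36 and -2.23. A group of grey genes near 0 in the first row reaches past 2 in the second.

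At the edge of the rule, 1540 genes were above background on 7 arrays and so were left out. Kcne3, a potassium channel subunit, had -4.29 ± 0.38 just outside the rule, and Alox15, a lipoxygenase, had -3.19 ± 0.54 just inside it (-1.70 with normexp and quantile normalization, -2.08 with the authors' values). Beyond the members, 77 further genes had an unadjusted p under 0.001.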

How the data were processed

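Labelled RNA (Cy3) of sorted mouse thymic dendritic cells was measured on 8 single-colour Agilent arrays of 1 slide. In the deposited scanner output each spot has an intensity that was background-subtracted and detrended in Feature Extraction 10.7.3.1, per the file headers (the submitters' processing notes name version 10.5 and limma). A value table deposited by the authors, on a log2 scale by its range, served as an alternative; how it was normalized is not given in the sources used here. Outlier spots (110 to 270 per array) were set missing, and 30 members then lacked a value on at least 1 array. Spots of a probe were averaged, log2 was taken of the processed signal, and the 75th percentile of each array was subtracted. Probes entered the fit if both arrays of at least 1 group had them well above background; a gene was represented by its brightest kept probe, named through RefSeq accessions (26582 of 55681 probes received a symbol). Probe coordinates refer to mm9 by the array header and are not printed.

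One limma model (3.58.1, R 4.3.3) with 4 group means and 4 residual degrees of freedom gave all contrasts, two-sided, with Benjamini-Hochberg adjustment over 24152 genes and a threshold of 0.05. The fit limited to the members adjusts over 18979. Precision is limited by the number of arrays. The members, the 32 gene lists (1013 entries, 22 not matched) and the rules were chosen with earlier results of these data known. The naming rule took genes that passed the interaction plus Cd40, Ccr7, Cd80, Cd86, Sirpa, Xcr1, Irf8 and Irf4; since 0 passed, every other gene named was chosen after its values were seen, mainly the 10 most negative and 10 most positive with a full symbol and an unadjusted p under 0.001, and list members with p under 0.05. The scanner files used here carry no mean signal column, so the normexp alternative (offset 50) used the median signal. Alternatives covered normalization, background correction, the authors' values, filters, probe rules, blocks, variances and left-out arrays.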

Additional observations from a re-analysis of the deposited data

How the results depend on the processing

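In the fit over all genes, where 0 members passed, the calls became 132 with normexp background correction and quantile normalization (111 below 0, 21 above; gap narrowed in 88, widened in 3, turned in 41), 92 below and 15 above with the authors' values (75, 1 and 31), 150 with trended and robust variances (128 and 22; 97, 1 and 52) and 101 with the members alone (82 and 19; 70, 1 and 30). Of these, 87, 90 and 99 genes of the first 3 settings were among the 101. There were 3 with the mean of a gene's probes (2 below, 1 above; all 3 narrowed), 1 with median scaling and 1 with the title number set as a block (each below 0 and narrowed), and 0 with quantile normalization alone, no filter, all probes singly, outlier spots kept, the slide row as a block, or any array left out. The cause of these differences was not tested.

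In the fit of members the 101 calls (82 below, 19 above) became 67 with the slide row as a block (57 below, 10 above), 191 with the title number set as a block (153 and 38) and 159 with trended and robust variances (135 and 24), all chosen after seeing the data, as were the left-out arrays, which gave 0 to 223 calls (0 to 80 below, 0 to 143 above; 36 without Sirpa_Neg_Immature replicate 7, 6 without Sirpa_Neg_Mature replicate 2, of which 5 lay below 0, and 50 without replicate 8 of that group, 44 below and 6 above). The other settings gave 85 to 127. Some interactions near 0 changed sign, with no test passed on either side: H2-Ab1 with normexp (-0.034) and Cd74 with normexp (-0.12), quantile normalization (-0.17) and the authors' values (-0.066). With single arrays left out, Ccr7 ran from -0.44 to 1.40, Itgax from -0.48 to 0.026, Flt3 from -0.086 to 0.099 and H2-Ab1 from -0.077 to 1.05. Among the named genes with an interaction over 1 in size, normexp with quantile normalization and the authors' values moved some by over 1.5 times, all nearer to 0, and the values of those described are beside them. Title numbers 1 to 8 are not shared between groups, so no fit was paired by them; the slide row and the title number set were the blocks fitted.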

Other observations

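No list was fixed for the clade B serpins, intracellular protease inhibitors, and they were chosen after their values were seen. Serpinb1a had maturation differences of 1.94 in Sirpa-positive and 4.54 in Sirpa-negative cells, Serpinb1c of 1.75 and 4.82, Serpinb6c of -0.21 and 2.84, and Serpinb6a of 0.05 and 2.34. Their interactions were -2.61, -3.07, -3.05 and -2.30, and each passed in the fit of members and not in the fit over all genes. The other Serpinb genes among the members, Serpinb6b at 1.54, Serpinb8 at 0.78 and Serpinb9 at 0.46, lay above 0 and passed in neither. Near-identical copies in this family may share probe signal.

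The kinase Src had maturation differences of 0.81 in Sirpa-positive and 3.64 in Sirpa-negative cells, with an interaction of -2.83. The transcription factor Bhlhe40 had 0.85 and 3.67, with -2.83, and Kdr, a receptor of vascular endothelial growth factor, had 0.95 and 2.94, with -1.99. For each of these 3 genes the rise in Sirpa-negative cells passed, the difference in Sirpa-positive cells did not, and the interaction passed in the fit of members.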
